A study of Homo sapiens with 15 samples.

Results

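The p24 family consists of the transmembrane emp24 domain (TMED) proteins, and the 10 human genes TMED1 to TMED10 were taken by name from a table of 55773 gene names. All 10 names were present. The family was chosen by its member TMED5, whose footprint level in cells overexpressing ZC3H7B was among the lowest of all genes relative to the Flag/HA control. The measured values of TMED5 in the ZC3H7B and Flag/HA control libraries thus made the choice, and they are given as a description with no test. No family gene was tested in the comparison of ZC3H7B with the Flag/HA control, and TMED5 was tested only between the libraries labelled ZC3H7A/B-DD and Parental.

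p24 proteins of the alpha, beta, gamma and delta subfamilies are small type I membrane proteins. They cycle between the endoplasmic reticulum (ER) and the Golgi. Each has a luminal GOLD domain, a coiled-coil stretch through which members of different subfamilies assemble, 1 membrane span and a short cytoplasmic tail that is read by the COPII coat on the way out of the ER and by the COPI coat on the way back. They are best known as cargo receptors for proteins with a glycosylphosphatidylinositol (GPI) anchor. TMED2 is the human beta member and TMED10 the delta member, TMED4 and TMED9 are alpha members, and TMED1, TMED3, TMED5, TMED6 and TMED7 are gamma members. TMED8 carries a GOLD domain but is placed outside these subfamilies.

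Ribosome-protected fragments were sequenced from HEK293 cells, a human embryonic kidney line, in 5 groups of 3 libraries. The Flag/HA set held lines overexpressing Flag/HA-ZC3H7A, lines overexpressing Flag/HA-ZC3H7B, and a Flag/HA control, all treated with doxycycline at 1 µg/mL for 24 h. The other set held ZC3H7A/B-DD cells, with the genotype ZC3H7A-KO-shZC3H7B, and Parental cells, with the genotype Wild-type-shCTR. Both lines of that set had been under puromycin at 5 µg/mL to select for the hairpin and were released from it before collection. Each construct or genotype is a line of its own, so differences between lines that have nothing to do with the construct cannot be told apart from its effect. The labels call the Flag/HA replicates independent and say nothing on the origin of the other replicates, so p-values there may measure technical spread. The sets differ in lysis buffer, library kit and laboratory, so no test was made across them. Footprints on a gene rise with the amount of its mRNA and with ribosomes per mRNA, which cannot be told apart here.

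The libraries held 24703005 to 25922138 assigned reads in ZC3H7A cells, 22661812 to 25939425 in ZC3H7B cells and 28261810 to 29515572 in the Flag/HA control, and 20777204 to 42680589 in ZC3H7A/B-DD cells against 32955833 to 39064072 in Parental cells. ZC3H7A reached 37598 to 38675 normalized counts in the ZC3H7A line against 6509 to 6607 in the Flag/HA control, and ZC3H7B reached 27182 to 28936 in the ZC3H7B line against 2089 to 2230.5 in the control. In the libraries labelled ZC3H7A/B-DD neither gene was low. ZC3H7A had 7116, 1890.3 and 5066 normalized counts there against 1885, 1819.9 and 2311 in Parental libraries, and ZC3H7B had 3948, 2399 and 2969 against 2479, 2321 and 2609. Parental replicate 3 stood apart: the counts of its 2 pairings with the other Parental libraries differed by a chi-square per degree of freedom of 64.6 and 87.9, against 1.65 to 25.6 for all other pairs within a group. Among those other pairs, the ZC3H7A/B-DD pairs were at 18.3 to 25.6 and the remaining Parental pair at 8.7. The pairs within groups of the Flag/HA set were closer, at 1.65 to 6.06. All 7 HEK293 markers had group means of 10 or more in each group, against 2 to 4 of 5 fibroblast markers, 1 of 6 blood cell markers and 0 of 3 hepatocyte markers.

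The last coding bases show how the members differ in their tails and in codon use. The 63 bases up to and including the stop codon are given 5′ to 3′ from the longest coding sequence of each gene in GENCODE release 29 (GRCh38). Capitals mark an A or T as the last base of a codon, without the stop codon. The set holds TMED5, the member with the lowest change in ZC3H7B cells, TMED7, a gamma relative with the opposite direction, the beta member TMED2, the delta member TMED10, the alpha pair TMED4 and TMED9, and TMED1, the member with the lowest share of codons ending in A or T.
TMED5: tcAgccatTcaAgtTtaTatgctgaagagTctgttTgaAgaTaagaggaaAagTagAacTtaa
TMED7: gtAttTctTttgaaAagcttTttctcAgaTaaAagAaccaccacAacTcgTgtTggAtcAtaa
TMED2: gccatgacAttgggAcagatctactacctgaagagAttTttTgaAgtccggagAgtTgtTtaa
TMED10: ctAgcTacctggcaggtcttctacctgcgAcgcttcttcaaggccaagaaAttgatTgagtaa
TMED4: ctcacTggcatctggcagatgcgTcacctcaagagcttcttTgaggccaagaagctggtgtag
TMED9: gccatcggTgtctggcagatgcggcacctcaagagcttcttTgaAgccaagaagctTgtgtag
TMED1: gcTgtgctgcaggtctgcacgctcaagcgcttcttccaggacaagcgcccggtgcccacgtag

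Of the 20 codons before the stop, 13 ended in A or T in TMED5 and 15 in TMED7, against 9 in TMED2, 5 in TMED10, 4 in TMED9, 3 in TMED4 and 1 in TMED1. TMED4 and TMED9 were the most alike of all pairs, with 54 of 63 bases identical. TMED5 and TMED7, both gamma members rich in such codons, had 15 of 63 identical. A pair of adjacent phenylalanine codons, which in p24 tails encode the residues known to be read by COPII, was found in this stretch in TMED1, TMED2, TMED3, TMED4, TMED7, TMED9 and TMED10 and not in TMED5, TMED6 or TMED8. No run of 28 bases, about the length of a footprint, was shared between the coding sequences of any members, so an exact read of that length matches 1 member at most.

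TMED5 lies on chromosome 1 at 93149742 to 93180728 on the minus strand of GRCh38, with 229 codons in 4 coding exons. TMED5 is a gamma member that takes part in the ER exit of GPI-anchored proteins. Its level was 5769.8, 6124 and 6528 normalized counts in ZC3H7A cells and 2944, 2975 and 2765 in ZC3H7B cells, against 8736, 8624 and 8807 in the Flag/HA control. The 3 groups were fully separated, with the ZC3H7B libraries lowest and the control libraries highest. The mean was 2895 ± 113 (SD, n = 3) in ZC3H7B cells against 8722 ± 92.3 (SD, n = 3) in the control. The log2 change was -1.59 on the log2(value + 1) scale. That change was the 138th lowest of 15599 genes and is what chose the gene. In ZC3H7A cells the log2 change was -0.51, set against the same control libraries and also without a test. The ZC3H7A libraries stood 1.08 above the ZC3H7B libraries on the log2 scale, again without a test. Part of its coding sequence, 27.5%, is overlapped by CCDC18 on the other strand. Genes on the other strand also overlap 31.7% of the coding bases of TMED1, 29.9% of TMED2 and 33.5% of TMED7.

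In the libraries labelled ZC3H7A/B-DD, in which neither ZC3H7A nor ZC3H7B was low and which did not enter the choice, no change of TMED5 passed the test. Its level was 2827, 1942 and 2712 normalized counts in the libraries labelled ZC3H7A/B-DD, against 2908, 2949 and 2361 in Parental libraries. These ranges overlapped. The log2 change was -0.15 (95% interval -0.49 to 0.19; limma adjusted p = 0.512). Its sign turned to 0.02 without ZC3H7A/B-DD replicate 2, the lowest of its group.

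**Figure D1:**
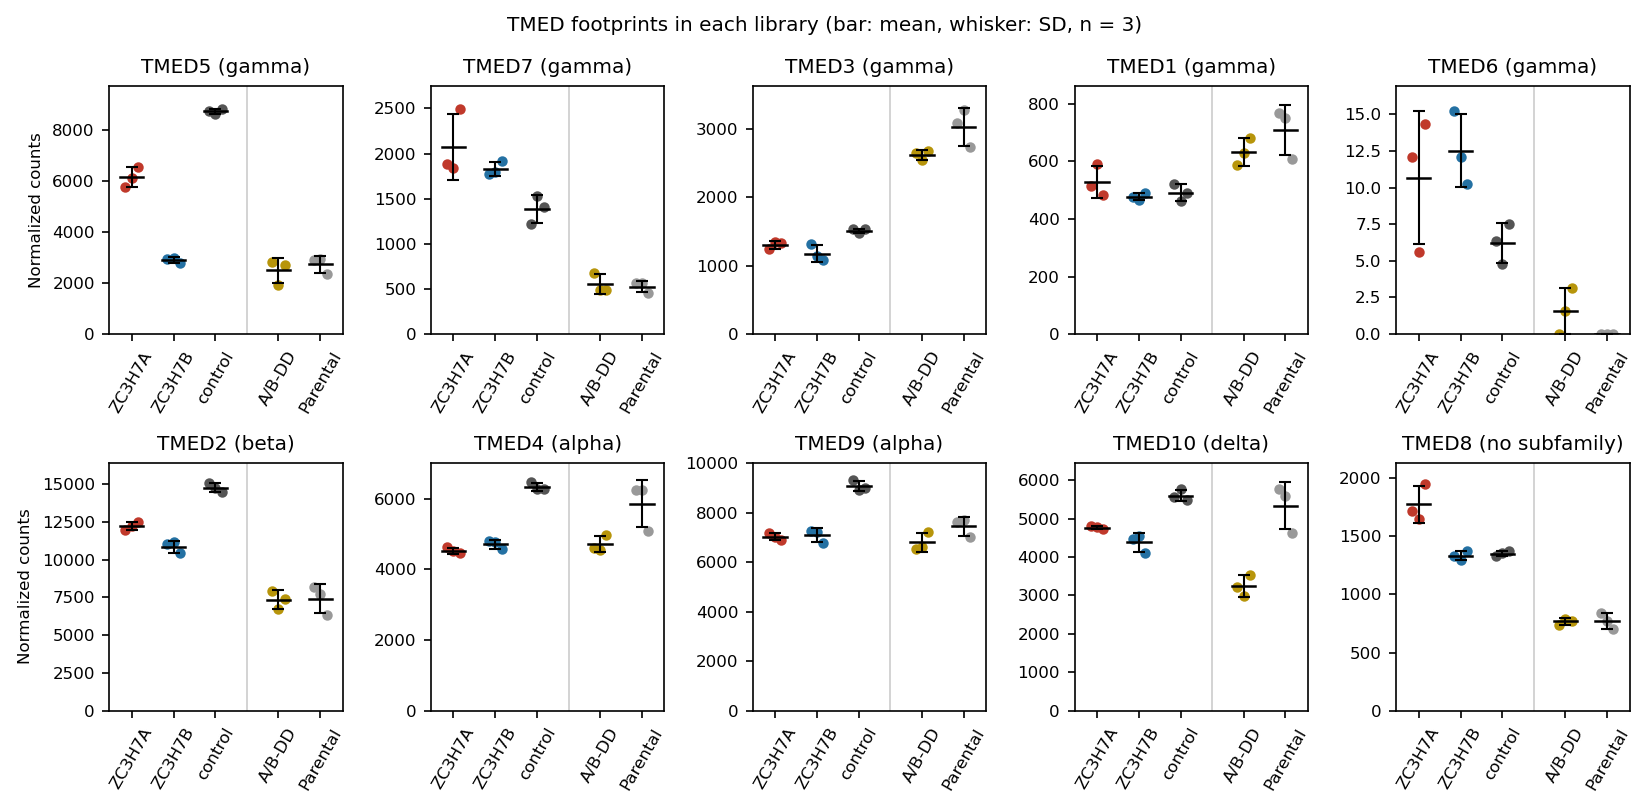
Normalized counts (vertical axis, starting at 0, 1 scale per gene) of the 10 TMED genes in each of 15 libraries (points), with the mean (bar) and SD (whisker) of 3 libraries; the vertical line separates the Flag/HA set from the ZC3H7A/B-DD and Parental set. TMED5 sits at 2765 to 2975 in ZC3H7B libraries against 8624 to 8807 in the Flag/HA control, TMED7 is higher in both overexpressing lines than in the control, and TMED10 is lower in ZC3H7A/B-DD libraries than in Parental libraries.

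TMED7 went the other way from TMED5. Apart from TMED6, which had few reads, it was the only gamma member above the control in every library of both overexpressing lines. It lies on chromosome 5 at 115613508 to 115632992, minus strand, has 224 codons and is known for bringing Toll-like receptor 4 to the cell surface. Its level was 1879, 1840.1 and 2489.7 normalized counts in ZC3H7A cells and 1777, 1791 and 1913 in ZC3H7B cells, against 1222, 1532 and 1404 in the Flag/HA control. All 6 overexpressing libraries lay above all 3 control libraries, and ZC3H7A replicate 3 was the highest. It rose in ZC3H7A cells, by 0.57 on the log2 scale (95% interval 0.39 to 0.75; limma adjusted p = 5.67e-06). In ZC3H7B cells the log2 change was 0.40, as a description. The rise in ZC3H7A cells was 0.43 without replicate 3 and stayed past the threshold. ZC3H7A minus ZC3H7B was 0.17 (adjusted p = 0.145), with 0.24 (adjusted p = 0.0437) without ZC3H7A replicate 2 and 0.03 (adjusted p = 0.827) without ZC3H7A replicate 3. The read-through gene TMED7-TICAM2 holds 84.2% of the coding bases of TMED7 on the same strand, and how reads shared by both were counted is not given in the sources used here. The row of TMED7-TICAM2 itself held at most 5.59 normalized counts in any library, so the level of TMED7 is uncertain to the extent that shared reads were dropped.

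TMED3 was lower in both overexpressing lines, and TMED1 overlapped the control. TMED3 is on chromosome 15 and is known for a part in WNT and other cargo transport. It had 1239, 1341 and 1337 normalized counts in ZC3H7A cells and 1311, 1140.2 and 1081 in ZC3H7B cells, against 1529, 1477 and 1529.9 in the Flag/HA control. Every overexpressing library was below every control library. It fell by 0.21 on the log2 scale in ZC3H7A cells (limma adjusted p = 0.0071), and the log2 change in ZC3H7B cells was -0.37. TMED1, which is known to bind the interleukin 33 receptor chain, had 514, 589.6 and 483 normalized counts in ZC3H7A cells and 474, 467 and 489.9 in ZC3H7B cells, against 522, 462 and 489 in the control. These libraries overlapped in both comparisons, with log2 changes of 0.10 in ZC3H7A cells (limma adjusted p = 0.309) and -0.04 in ZC3H7B cells.

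TMED6 was close to absent. This gamma member, known for a narrow tissue range, had 12.1, 5.59 and 14.3 normalized counts in ZC3H7A cells and 15.2, 12.1 and 10.3 in ZC3H7B cells, against 6.33, 4.79 and 7.54 in the Flag/HA control. The values rest on 24, 26 and 15 reads per group. It passed the filter on low values through the overexpressing groups alone, so it is left out of every count and test. In the other set it had 0, 1.58 and 3.14 normalized counts in ZC3H7A/B-DD libraries against 0 in each Parental library, which allows a Parental mean of up to 0.898 (3 reads over the group). A second gene on the same strand, AC026464.1, holds 64.7% of its coding bases.

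TMED2, the beta member, was the most abundant. It lies on chromosome 12 at 123584531 to 123598577, plus strand, with 201 codons, and forms the core of p24 complexes together with TMED10. It had 11948, 12229.5 and 12512 normalized counts in ZC3H7A cells and 11009.9, 11174 and 10423 in ZC3H7B cells, against 15076, 14768 and 14491 in the Flag/HA control. The 3 groups did not overlap. It fell by 0.27 on the log2 scale in ZC3H7A cells (95% interval -0.36 to -0.18; limma adjusted p = 8.05e-06; -0.18 with quantile scaling, adjusted p = 9.87e-05), and the log2 change in ZC3H7B cells was -0.44. ZC3H7A cells stood above ZC3H7B cells by 0.17 (adjusted p = 0.00275), a call that was lost when the spread was estimated over all 15 libraries (adjusted p = 0.175). In the other set its levels were 7960.2, 6744 and 7388 in ZC3H7A/B-DD libraries against 8202, 7698 and 6367 in Parental libraries, and they overlapped (log2 change -0.01, 95% interval -0.27 to 0.25, adjusted p = 0.974).

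TMED10, the delta member, is the partner of TMED2 and has also been found to bind the gamma-secretase complex. It lies on chromosome 14 at 75131470 to 75176631, minus strand, with 219 codons. It had 4807, 4769.9 and 4719 normalized counts in ZC3H7A cells and 4473, 4558 and 4109.8 in ZC3H7B cells, against 5555, 5767 and 5475 in the Flag/HA control. The groups were separate, with ZC3H7B lowest. It fell by 0.23 on the log2 scale in ZC3H7A cells (limma adjusted p = 0.000142), and the log2 change in ZC3H7B cells was -0.36. With quantile scaling these changes were -0.13 (adjusted p = 0.0102) in ZC3H7A cells and -0.23 in ZC3H7B cells. ZC3H7A cells were above ZC3H7B cells by 0.12 (95% interval 0.03 to 0.22; adjusted p = 0.0391). That last call was lost when 1 of 6 libraries was left out. The adjusted p was 0.0990, 0.0760 and 0.05003 without ZC3H7A replicates 1, 2 and 3, 0.156 without ZC3H7B replicate 3 (difference 0.08), and 0.0526 and 0.0567 without control replicates 2 and 3. It was also lost with no filter on low values (adjusted p = 0.0914) and in 1 fit over all 15 libraries (adjusted p = 0.325).

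TMED10 was also the member called in the libraries labelled ZC3H7A/B-DD. It had 3209, 2980.4 and 3538 normalized counts there, against 5776, 5593 and 4637 in Parental libraries. Every ZC3H7A/B-DD library was below every Parental library, including Parental replicate 3. It fell by 0.72 on the log2 scale (95% interval -0.96 to -0.47; limma adjusted p = 0.00217). The change stayed past the threshold in all 17 alternatives, with adjusted p from 1.82e-07 to 0.0159. Its pseudogene TMED10P1 shares 113 of 4100 of its 28-base runs and was listed at 0 in all libraries. Footprints of neither ZC3H7A nor ZC3H7B were low in these libraries, and the cause of the fall of TMED10 was not tested.

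Both alpha members were lower in the overexpressing lines. TMED9, on chromosome 5 at 177592158 to 177596124, is known as a cargo receptor that holds misfolded membrane proteins in the early secretory pathway. TMED4, on chromosome 7 at 44577894 to 44582287, is its closest relative. TMED9 had 7186, 7036 and 6899 normalized counts in ZC3H7A cells and 7273, 7226 and 6762 in ZC3H7B cells, against 9324, 8911 and 9014 in the Flag/HA control. TMED4 had 4622, 4506 and 4458 in ZC3H7A cells and 4788, 4758 and 4567 in ZC3H7B cells, against 6455, 6271 and 6264 in the control. For both genes the 6 overexpressing libraries lay below the 3 control libraries, and the lines overexpressing ZC3H7A and ZC3H7B overlapped each other.

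In ZC3H7A cells TMED4 fell by 0.48 (limma adjusted p = 1.12e-09) and TMED9 fell by 0.37 (adjusted p = 1.32e-07) on the log2 scale. In ZC3H7B cells the log2 changes were -0.43 for TMED4 and -0.36 for TMED9. ZC3H7A minus ZC3H7B was -0.05 (95% interval -0.14 to 0.03; adjusted p = 0.344) for TMED4 and -0.01 (-0.10 to 0.08; adjusted p = 0.902) for TMED9. In the other set TMED4 had 4594, 4557 and 4969.9 normalized counts in ZC3H7A/B-DD libraries against 6233, 6244 and 5091 in Parental libraries, which did not overlap (log2 change -0.31, adjusted p = 0.0552). Without Parental replicate 3, the lowest Parental library, the change of TMED4 was -0.41 (adjusted p = 0.00299). Over all 17 alternatives the change of TMED4 ran from -0.41 to -0.26, with adjusted p from 0.00254 to 0.212.

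TMED8, outside the subfamilies, set the lines apart. It had 1722, 1653 and 1952 normalized counts in ZC3H7A cells and 1332, 1294 and 1376 in ZC3H7B cells, against 1328, 1353 and 1373 in the Flag/HA control. The ZC3H7A libraries were above all others, and the ZC3H7B libraries overlapped the control. It rose in ZC3H7A cells by 0.39 on the log2 scale (limma adjusted p = 5.96e-06), and the log2 change in ZC3H7B cells was -0.02 (95% interval -0.14 to 0.11). The difference of ZC3H7A minus ZC3H7B was 0.41 (95% interval 0.29 to 0.53; adjusted p = 6.62e-06).

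Taking the family in ZC3H7A cells, 7 of 8 tested members were called, 2 higher (TMED7 and TMED8) and 5 lower (TMED2, TMED3, TMED4, TMED9 and TMED10), where 57.5% of the 15599 genes tested were called, 29.2% higher and 28.2% lower. The median log2 change was -0.23 over 9 members without TMED6, against 0.02 over all genes tested. These 9 include TMED5, which was chosen through the same control libraries, so this median and the next count are a description. Of these 9 members, 2 lay above the control in every library, 6 below and 1 overlapped it, where 63.9% of all genes did not overlap, 32.4% above and 31.5% below. In ZC3H7B cells 6 of these 9 members lay below the control in every library, 1 above and 2 overlapped, where 61.1% of all genes did not overlap (32.2% above and 29% below) and 54.3% were called (28.9% higher and 25.4% lower). Nothing is read from that count, since the comparison chose the family through TMED5. Both comparisons use the same 3 control libraries. Between the overexpressing lines 3 of 8 tested members were called, each higher in ZC3H7A cells (TMED2, TMED8 and TMED10), where 36.6% of all genes were called (18.4% higher and 18.2% lower). With TMED5 included, 4 of 9 members lay in ZC3H7A cells above ZC3H7B cells in every library and none below. TMED5 was chosen through those ZC3H7B libraries, so this count is a description. Of all genes, 43.7% did not overlap, 21.9% above and 21.9% below. In the libraries labelled ZC3H7A/B-DD 1 of 9 members was called, TMED10, where 24.5% of 17092 genes were called (11% higher and 13.5% lower). The median log2 change there was -0.15 over 9 members and 0.02 over all genes. TMED3, TMED4 and TMED10 lay below Parental in every library and no member above, where 40.8% of all genes did not overlap, 19.6% above and 21.2% below.

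**Figure D2:**
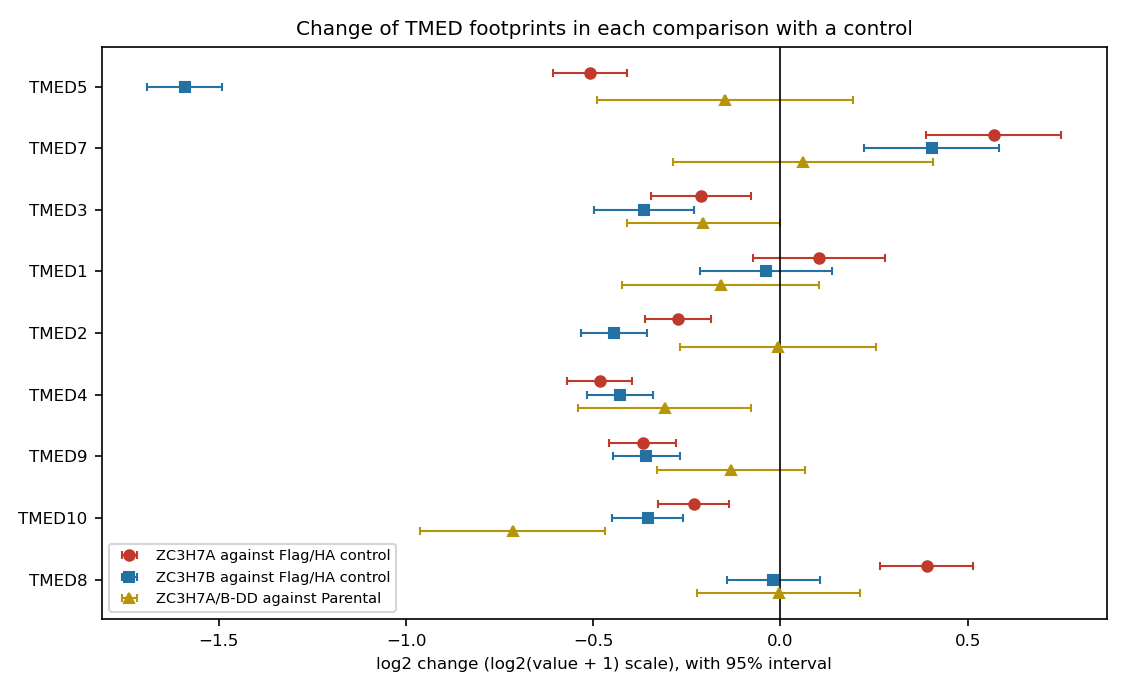
The log2 change on the log2(value + 1) scale (horizontal axis) of 9 TMED genes in the comparisons of ZC3H7A and ZC3H7B with the Flag/HA control and of ZC3H7A/B-DD with Parental, with limma 95% intervals (n = 3 a group). TMED5 reaches -1.59 in ZC3H7B cells, TMED7 is above 0 in both overexpressing lines, and TMED10 reaches -0.72 in ZC3H7A/B-DD libraries. The ZC3H7B values are a description, and the intervals of TMED5 in the Flag/HA set take no account of its choice.

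The remaining members were not called between the libraries labelled ZC3H7A/B-DD, in which neither target gene was low, and Parental. TMED3 had 2643, 2539 and 2679 normalized counts in ZC3H7A/B-DD libraries against 3089, 3274 and 2729.8 in Parental libraries. Its libraries did not overlap, with a log2 change of -0.21 (adjusted p = 0.128), and -0.28 (adjusted p = 0.0183) without Parental replicate 3. Over all 17 alternatives the change of TMED3 ran from -0.28 to -0.15, with adjusted p from 0.0183 to 0.410. TMED9 had 6539, 6638 and 7228 in ZC3H7A/B-DD libraries against 7641, 7701 and 7020.0 in Parental libraries (log2 change -0.13, adjusted p = 0.302). Parental replicate 3 was the lowest Parental library for 9 of 9 members measured there, and the part of that library in the results was not tested beyond leaving it out. TMED7 had 681, 491 and 485 against 565, 562 and 452, TMED8 739, 792 and 772 against 839, 774 and 704, and TMED1 586, 627 and 682 against 767, 749.7 and 609, in ZC3H7A/B-DD and Parental libraries. These 3 overlapped, with log2 changes of 0.06 (adjusted p = 0.808), -0.005 (0.976) and -0.16 (0.352).

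Levels of different genes were compared per coding length, as normalized counts per 100 codons. TMED2 was the highest member in each group, with 6085 in ZC3H7A, 5407 in ZC3H7B and 7353 in the Flag/HA control, and 3664 in ZC3H7A/B-DD and 3693 in Parental cells. In the control it stood at the 98.9th percentile of 12461 coding genes at 10 or more normalized counts, and TMED9 came next in each group. The TMED2 and TMED9 libraries overlapped in Parental cells and in no other group. In the control TMED9 (3865 per 100 codons) and TMED5 (3809) overlapped, ahead of TMED4 (2789) and TMED10 (2557). In ZC3H7A cells the order was TMED2, TMED9, TMED5, TMED10 and TMED4, with no overlap between neighbours. In ZC3H7B cells TMED5, at 1264 ± 49.5 (SD, n = 3) per 100 codons, was below TMED4 (2072) and TMED10 (2000.2), which overlapped each other. TMED3, TMED7, TMED8 and TMED1 followed in the control, at 697, 619, 416 and 216 per 100 codons, with TMED3 and TMED7 overlapping.

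TMED5 made up 14.7% ± 0.605 of the family's summed footprints per 100 codons in ZC3H7A cells and 8.03% ± 0.0658 in ZC3H7B cells, against 17.1% ± 0.277 in the Flag/HA control (SD, n = 3 each). It made up 8.23% ± 1.19 in ZC3H7A/B-DD cells and 7.83% ± 0.197 in Parental cells. The sum was 18242 ± 389.6 in ZC3H7A cells and 15744 ± 510.4 in ZC3H7B cells, against 22322 ± 217 in the control, that is -18.3% and -29.5%. TMED5 accounted for 27.6% of the difference in ZC3H7A cells and 38.7% of that in ZC3H7B cells, and TMED2 for 31.1% and 29.6%. TMED5 was chosen by its values in the ZC3H7B and control libraries. The sums that hold it, and its part of their differences, are thus a description. In ZC3H7A/B-DD cells the sum was 13171 ± 759 against 15258 ± 1535 in Parental cells, and the ranges overlapped. There TMED10 made up 45.8% of the difference and TMED5 5.14%.

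**Figure D3:**
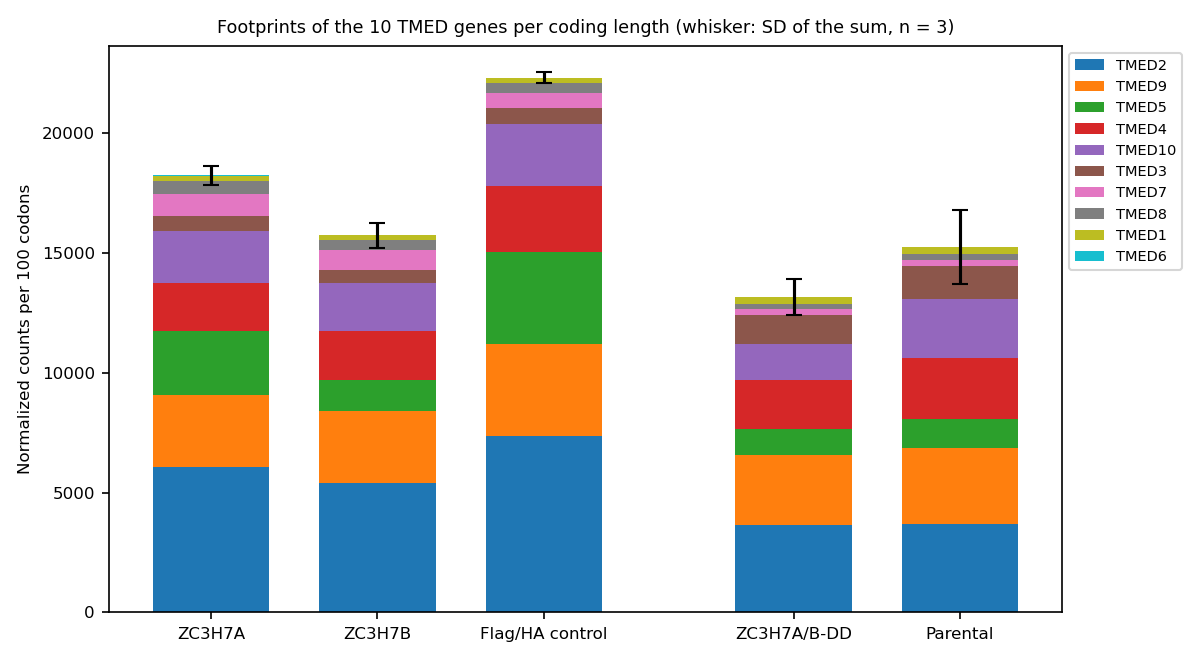
Mean normalized counts per 100 codons (vertical axis, stacked) of the 10 TMED genes in the 5 groups, with the SD of the sum over 3 libraries as a whisker. The TMED5 segment is 1264 in ZC3H7B cells and 2681 in ZC3H7A cells against 3809 in the Flag/HA control, while TMED2 is the largest segment in every group.

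The share of codons ending in A or T differed widely among members: 17.7% in TMED1, 22.1% in TMED4, 23.5% in TMED9, 24.1% in TMED3, 38.9% in TMED8, 40.8% in TMED10, 44.0% in TMED2, 47.7% in TMED6, 50% in TMED5 and 52.5% in TMED7, against a median of 39.4% over all coding genes. TMED5 and TMED7 fell in the same bin when the tested genes were split by this share into 10 bins of equal size. Its median log2 change in ZC3H7B cells was -0.02. Of the 1286 genes in the bin, 14 had a lower change than TMED5, a rank that follows from its choice by this change. TMED7 was at the 86.5th percentile. In ZC3H7A cells, set against the same control libraries, TMED5 was at the 12.9th and TMED7 at the 91.7th percentile of that bin. The part of codon content in these changes was not tested. TMED4, TMED9 and TMED3, with few such codons, were in a bin whose median change was 0.16 in both lines, and their own changes were -0.48, -0.37 and -0.21 in ZC3H7A cells and -0.43, -0.36 and -0.37 in ZC3H7B cells.

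**Figure D4:**
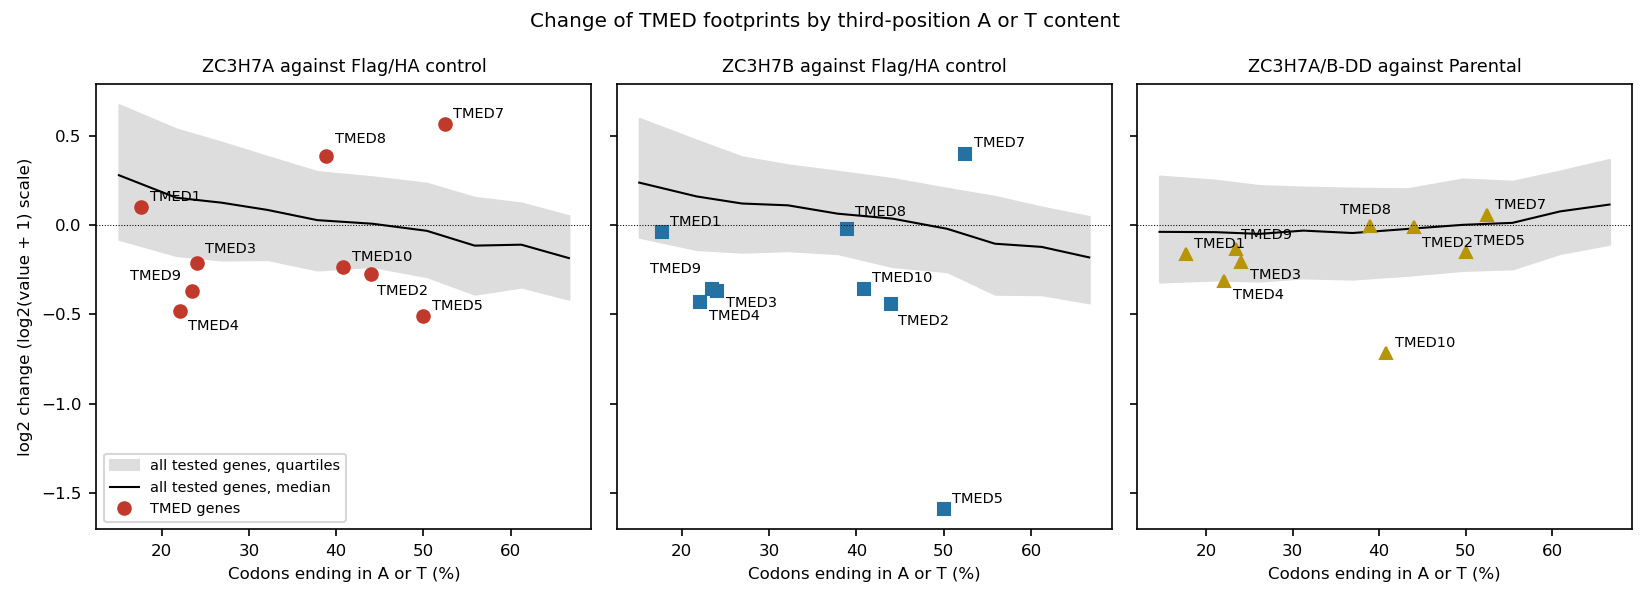
The log2 change of 9 TMED genes (points) against the percentage of their codons ending in A or T, with the median (line) and quartiles (band) of all tested genes in 10 bins of that percentage, for the 3 comparisons with a control. TMED5 (50%) and TMED7 (52.5%) lie on opposite sides of the median in both overexpressing lines, and TMED10 lies at -0.72 in ZC3H7A/B-DD libraries. TMED5 was chosen by its change in ZC3H7B cells.

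Genes whose changes over the 15 libraries were most like those of TMED5 were sought among 10701 genes with a mean of at least 100 in both control groups, by Pearson's r of log2 values less the mean of the set's control. The libraries share their controls, and the ZC3H7B libraries carry most of the range, so r is a description. Among the 5 highest were ITGA1 (0.991), a collagen-binding integrin, ESYT2 (0.991), an ER to plasma membrane tether, MANEA (0.991), a Golgi mannosidase, and LMAN1 (0.989), the ER to Golgi cargo receptor also called ERGIC-53. In ZC3H7B cells the log2 changes of these 4 genes were -1.32, -1.03, -1.56 and -1.59. In ZC3H7A cells they were -0.32, -0.31, -0.50 and -0.35. Among the other members r was 0.916 for TMED2 (97.8th percentile of those genes), 0.807 for TMED3, 0.773 for TMED9, 0.671 for TMED4, 0.285 for TMED10, 0.02 for TMED1, 0.01 for TMED8 and -0.47 for TMED7.

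The coats that read the p24 tails and the pathway of their GPI-anchored cargo were described from lists of known genes. The lists were chosen with earlier results of these data known. Genes named from them are among the called genes with the smallest p. The counts and p-values of these lists are thus a description. Of 9 COPI coat genes, 6 fell and none rose in ZC3H7A cells, and 5 fell and 1 rose in ZC3H7B cells, where 28.2% and 25.4% of all tested genes were called lower and 29.2% and 28.9% higher. COPZ1, a small COPI subunit, had 6901 ± 243 normalized counts in ZC3H7A cells against 9168 ± 33.3 in the control, and fell by 0.41 on the log2 scale (adjusted p = 1.69e-07). In the libraries labelled ZC3H7A/B-DD, 3 of 8 tested COPI genes rose and 2 fell, where 11% of all genes were called higher and 13.5% lower. COPB2 had 15360.1 ± 918 normalized counts there against 9322 ± 2913 in Parental libraries and rose by 0.76 (adjusted p = 0.0171), or by 1.01 (adjusted p = 4.18e-05) without Parental replicate 3. COPE had 3996 ± 703 against 6458 ± 332 in Parental libraries and fell by 0.71 (adjusted p = 0.00398).

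Of 15 COPII and ER exit genes tested, 2 rose and 6 fell in ZC3H7A cells, 3 rose and 7 fell in ZC3H7B cells, and 1 rose and 2 fell in ZC3H7A/B-DD libraries. Of all genes, 29.2% rose and 28.2% fell in ZC3H7A cells, 28.9% and 25.4% in ZC3H7B cells, and 11% and 13.5% in ZC3H7A/B-DD libraries, so the last count is near the share of all genes. The paralogous COPII subunits SEC23A and SEC23B moved in opposite directions in ZC3H7B cells. SEC23A had 4316 ± 147 normalized counts in ZC3H7B cells against 7074 ± 179 in the control, and fell by 0.71 (adjusted p = 3.7e-12). SEC23B had 11254 ± 442 in ZC3H7B cells against 6726 ± 117 in the control, and rose by 0.74 (adjusted p = 2.35e-12). The rise of SEC23B was also seen in ZC3H7A cells, with 10506 ± 470 normalized counts and a log2 change of 0.64 (limma adjusted p = 2.83e-11). In ZC3H7A/B-DD libraries SEC23A fell by 1.49 (adjusted p = 1.1e-05) and SEC23B rose by 0.59 (adjusted p = 0.0355), with 14365 ± 972 normalized counts in ZC3H7A/B-DD libraries against 9757 ± 2718 in Parental libraries. Without Parental replicate 3 the rise of SEC23B was 0.81 (adjusted p = 0.000228).

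Of 30 genes of GPI anchor synthesis and remodelling, 17 fell and 5 rose in ZC3H7A cells, 19 fell and 4 rose in ZC3H7B cells, and 8 fell and 4 rose in ZC3H7A/B-DD libraries, with median log2 changes of -0.26, -0.33 and -0.13 against 0.02, 0.04 and 0.02 over all genes. Of all genes, 28.2% fell and 29.2% rose in ZC3H7A cells, 25.4% and 28.9% in ZC3H7B cells, and 13.5% and 11% in ZC3H7A/B-DD libraries. PIGK, the catalytic subunit of the transamidase that attaches the anchor, had 4169 ± 191.6 normalized counts in ZC3H7B cells against 8967 ± 233 in the control and fell by 1.11 (adjusted p = 2.8e-15). PIGL, of the same list, rose by 0.44 in ZC3H7A cells (limma adjusted p = 0.000157) and by 0.44 in ZC3H7B cells (limma adjusted p = 0.000175). Of the GPI-anchored proteins, 12 of 27 fell and 5 rose in ZC3H7A cells, 16 of 27 fell and 2 rose in ZC3H7B cells, and 10 of 29 fell and none rose in ZC3H7A/B-DD libraries. CNTN1, a neural adhesion protein, fell by 0.69 (adjusted p = 6.69e-10) in ZC3H7A cells and by 1.24 (adjusted p = 2.94e-14) in ZC3H7B cells. GFRA1, of the same list, rose by 0.90 in ZC3H7A cells (limma adjusted p = 7.31e-10). MFI2 (melanotransferrin) fell by 1.02 (adjusted p = 0.000762) in ZC3H7A/B-DD libraries.

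The remaining lists are small, and stand beside 29.2% of all genes higher and 28.2% lower in ZC3H7A cells, 28.9% and 25.4% in ZC3H7B cells, and 11% and 13.5% in ZC3H7A/B-DD libraries. Of 3 KDEL receptors, which return ER residents from the Golgi, 2 fell in each overexpressing line and none was called in ZC3H7A/B-DD libraries. KDELR3 fell by 0.86 in ZC3H7A cells (adjusted p = 4.57e-10) and by 0.94 in ZC3H7B cells (adjusted p = 1.04e-10). Of 8 genes of the ARF cycle, 3 rose and 3 fell in ZC3H7A cells and 2 rose and 2 fell in ZC3H7B cells, with ARF3 up by 1.56 (adjusted p = 4.04e-11) and 1.77 (adjusted p = 4.76e-12). Of 10 ER to Golgi SNAREs, 2 rose and 4 fell in ZC3H7A cells, 4 rose and 1 fell in ZC3H7B cells, and 2 rose in ZC3H7A/B-DD libraries. Of 7 Golgi tethers, 1 rose and 1 fell in ZC3H7A cells, 2 rose and 4 fell in ZC3H7B cells, and 1 fell in ZC3H7A/B-DD libraries. Without Parental replicate 3, 15.7% of all genes were higher and 17.4% lower in ZC3H7A/B-DD libraries. The counts there were then 4 higher and 2 lower for COPI, 3 and 2 for COPII, 3 and 1 for the ARF cycle, 1 and 1 for SNAREs, 3 and 1 for tethers, 4 and 12 for GPI synthesis, and 0 and 12 of 27 for GPI-anchored proteins, with no KDEL receptor called.

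**Figure D5:**
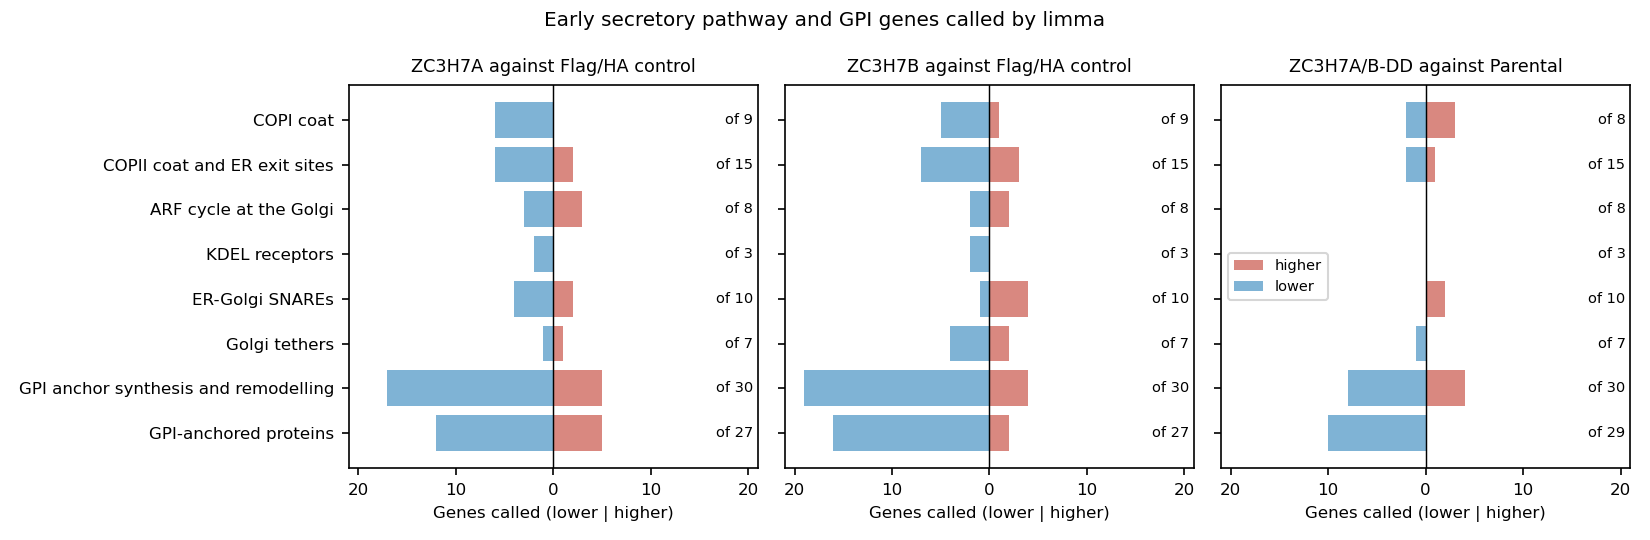
Numbers of genes called by limma at an adjusted p under 0.05 (bars, lower to the left and higher to the right) in 8 lists of early secretory pathway and GPI genes, for the 3 comparisons with a control; the number tested stands at the right of each bar. GPI anchor synthesis has 17 and 19 genes lower and 5 and 4 higher in ZC3H7A and ZC3H7B cells. COPI has 6 and 5 lower and 0 and 1 higher. Of all tested genes, 28.2% and 25.4% were called lower in these comparisons, and 29.2% and 28.9% higher.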

How the data were processed

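The deposited table holds 1 signal per gene name and library, normalized counts made by the authors; the submitters' processing notes name 2 builds (hg19, hg38) and the tools STAR, Bowtie, cutadapt, HTSeq and DESeq2, with neither versions nor roles. Within each library all values (100%, to within 0.001 reads) were whole multiples of 1 step, so each value is the reads of a gene divided by a size factor, and depths could be recovered. The floor given for TMED6 covers counting error only, while the 95% intervals of log2 changes are limma's, from the spread among libraries. The members and gene lists were chosen with earlier results of these data known.

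The test was limma's (version 3.58.1, R 4.3.3; lmFit, then eBayes with trend) on log2(value + 1), a scale that understates changes of low genes. A gene needed 10 or more in 3 or more libraries of its fit, p-values were adjusted over all genes tested by Benjamini-Hochberg, and 0.05 was the threshold. One fit held the 9 Flag/HA libraries and another the remaining 6. Coding sequences, at least 30 codons long, came from GENCODE release 29 (GRCh38), which may not be the authors' annotation; codon shares leave out the start and stop codons. Table names matched a coding sequence in 18336 cases. Named pathway genes are, per list and comparison with a control, up to 2 called genes per direction with the smallest p; of these the text gives examples. Of the 5 genes most like TMED5, 1 is not reported here. Alternatives were other pseudocounts, filters and scalings, edgeR 4.0.16 and DESeq2 1.42.0 on the recovered reads, voom weights, a replicate block, 1 fit over all 15 libraries, and each library left out in turn. The pathway lists without Parental replicate 3 were added after seeing the data.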

Additional observations from a re-analysis of the deposited data

Results flagged for a closer look

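TMED2, TMED8 and TMED10 had a difference between the overexpressing lines that passed limma's threshold on the difference itself. They are 3 of 8 tested members, near the share of 36.6% called over all genes. ZC3H7A minus ZC3H7B was 0.17 for TMED2 on the log2 scale (limma adjusted p = 0.00275; 12230.0 ± 282 normalized counts in ZC3H7A cells against 10869 ± 395 in ZC3H7B cells, all 3 ZC3H7A libraries above all 3 ZC3H7B libraries). It was 0.41 for TMED8 (limma adjusted p = 6.62e-06; 1776 ± 157 in ZC3H7A cells against 1334 ± 40.7 in ZC3H7B cells, all 3 above all 3), the only one of these that kept its call in all 20 alternatives. It was 0.12 for TMED10 (limma adjusted p = 0.0391; 4765 ± 44.4 in ZC3H7A cells against 4380.4 ± 238 in ZC3H7B cells, all 3 above all 3), with adjusted p from 0.0132 to 0.325 over its 20 alternatives.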

How the results depend on the processing

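The count of called members with ZC3H7A against the control was 7 in all 20 alternatives. For ZC3H7A against ZC3H7B it was 1 in place of 3 in 1 fit over all 15 libraries (TMED8) and 2 to 4 when a library was left out. In that comparison it was also 2 with no filter on low values (TMED10 lost) and 4 with TMM scaling or edgeR (TMED3 added). For ZC3H7A/B-DD against Parental it was 2 in place of 1 with a filter of 50, TMM scaling, edgeR or DESeq2 (TMED4 added), 3 in 1 fit over all 15 libraries (TMED3 and TMED4 added), and 1 to 3 with a library left out. The genes called there were 4182, and 1895 to 5560 with a library left out (1895 without Parental replicate 2). Signs turned in members with no call. ZC3H7A minus ZC3H7B of TMED9 was 0.0131 with TMM, 0.0126 with edgeR and 0.00218 with DESeq2, and -0.0423 to 0.0102 with a library left out. In ZC3H7A/B-DD, TMED8 was 0.0448 with quantile scaling and -0.0697 to 0.0562 with a library left out, TMED7 -0.100 to 0.144, TMED2 -0.113 to 0.0697 and TMED5 -0.251 to 0.0229. ZC3H7A minus ZC3H7B of TMED3 was called with TMM and edgeR. Quantile scaling brought members nearer to 0 by over 1.5 times and kept the calls: in ZC3H7A cells TMED10 -0.13, TMED2 -0.18 and TMED9 -0.24, and in ZC3H7B cells, as a description, TMED10 -0.23 and TMED9 -0.24. TMED5 was -0.39 in ZC3H7A and -1.48 in ZC3H7B cells. The cause of these shifts was not tested.

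Same-numbered libraries did not deviate together (correlations -0.06 to 0.09 over 9 pairs of the Flag/HA set and -0.13 to 0.03 over 3 pairs of the other), and 8 of 18 and 2 of 6 best matches were with the own number. With the replicate block 9169, 8714, 6026 and 2992 genes were called, against 8964, 8475, 5705 and 4182 without it, for ZC3H7A, ZC3H7B, ZC3H7A against ZC3H7B and ZC3H7A/B-DD, and 7, 3 and 1 members in the 3 tested comparisons. Depth limits TMED6, with 0 to 26 reads per group.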
